A study of Bos taurus with 30 samples.

Results

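Growth hormone receptor (GHR) and insulin-like growth factor 1 (IGF1) are 2 genes of the 24596 listed for these livers. They were taken by their Ensembl identifiers, ENSBTAG00000001335 for GHR and ENSBTAG00000011082 for IGF1. The deposited table holds identifiers without symbols, and no annotation used here paired them, so the names rest on that choice of identifiers. Both genes passed the filter on low counts, which left 12913 genes for testing. The samples are labelled as liver of Holstein-Friesian X Angus heifer calves, all taken at 21 weeks of age, although the extraction text speaks of hypothalamus; without symbols the tissue could not be checked by its marker genes. From 2 weeks of age, 15 calves were on a High and 15 on a Moderate plane of nutrition, with aimed gains of 1.2 and 0.5 kg per day. Before weaning (8 weeks), High calves had 1.5 kg of milk replacer daily, made up to 10 litres, and free access to concentrates, whereas Moderate calves had 0.5 kg in 4 litres with 1 kg of concentrates. After weaning (11 weeks) hay was freely available to all, and concentrates were unlimited for High and 1 kg for Moderate. Each library is from 1 calf with its own tag.

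GHR is the cell-surface receptor through which pituitary growth hormone acts on the liver. Its activation signals through JAK2 and STAT5 and drives transcription of IGF1, and the liver supplies most of the circulating IGF1, which promotes growth of muscle and bone and feeds back on growth hormone release. In undernourished ruminants the liver is known to become resistant to growth hormone, with low hepatic GHR and low circulating IGF1. In cattle GHR is transcribed from several promoters with alternative first exons, 1 of them used mainly in liver; the values here are per gene and do not separate these transcripts. The RefSeq table of ARS-UCD2.0, searched by symbol, lists 1 transcript for GHR and 10 for IGF1.

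Libraries held 11528471 to 17906182 reads (median 14165610). Values are in scaled CPM, the reads of a gene per 1000000 reads of the library after a trimmed-mean correction of the library total. A read was worth 0.0554 to 0.0955 scaled CPM. GHR was counted with 1389 to 5007 reads per library and IGF1 with 57 to 1015. A library from the Moderate group, Moderate replicate 7, was the highest of its diet for both genes and lay among the High libraries for both. On the first principal component of the 500 most variable other genes it scored -3.37. Moderate scores ran from -19.3 to -2.25 and High scores from 5.87 to 14.9. On this component it lay within the range of its own diet, near the end toward High. The levels of each gene, the differences between the diets and the relation of the 2 genes are also given without Moderate replicate 7. The SD within diets on the log2 scale and the relations with library measures are given only with it. Moderate replicate 7 stood out by its values of these same genes, so leaving it out had to raise their differences between the diets. In bulk liver, fewer expressing cells and less RNA per cell cannot be told apart.

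Receptor mRNA was higher on the High plane. GHR ran from 148 to 339 scaled CPM in High livers, with a median of 240, and from 112 to 317 in Moderate livers, with a median of 151. High livers averaged 250 ± 47.2 and Moderate livers 166 ± 57.7 (SD, n = 15 each). The groups overlapped: 7 Moderate libraries lay below the lowest High library, and 14 of 15 High libraries lay above the Moderate median. High replicate 6 (339 scaled CPM) was the only library above Moderate replicate 7 (317). High replicate 3 (148) was the lowest High library by a wide margin, the next being High replicate 1 at 205. In Moderate, replicates 1 (240) and 10 (235) followed replicate 7, and the others were at 183 or below. GHR rose in High by 0.63 on the log2(scaled CPM + 0.5) scale (SE 0.13, 95% interval 0.37 to 0.89; limma, adjusted p = 0.000813), a 1.55-fold difference. Without Moderate replicate 7 the Moderate mean was 155 ± 41.3 (SD, n = 14) and the log2 fold change 0.70.

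The hormone's mRNA differed more than that of the receptor. IGF1 ran from 15.0 to 67.2 scaled CPM in High livers, with a median of 31.9, and from 3.45 to 37.8 in Moderate livers, with a median of 8.32. High livers averaged 35.1 ± 15.0 and Moderate livers 9.58 ± 8.53 (SD, n = 15 each). All 15 High libraries lay above the Moderate median, and 13 of 15 Moderate libraries lay below the lowest High library. The overlap came from Moderate replicate 7 (37.8) and Moderate replicate 1 (16.9), and the next highest Moderate library was replicate 5 at 10.5. At the other end, 5 Moderate livers were between 3.45 and 4.98 and a further one, replicate 11, was at 5.07. IGF1 rose in High by 1.99 on the log2(scaled CPM + 0.5) scale (SE 0.25, 95% interval 1.48 to 2.50; limma, adjusted p = 8.29e-07), which is 3.96-fold (2.79 to 5.64). Without Moderate replicate 7 the Moderate mean fell to 7.56 ± 3.57 (SD, n = 14) and the log2 fold change was 2.14 (limma, adjusted p = 8.99e-09). As this was the Moderate library highest in IGF1, the larger difference is no added support. Over all 30 omissions of 1 library, the limma adjusted p ran from 8.99e-09 to 2.38e-06.

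**Figure D1:**
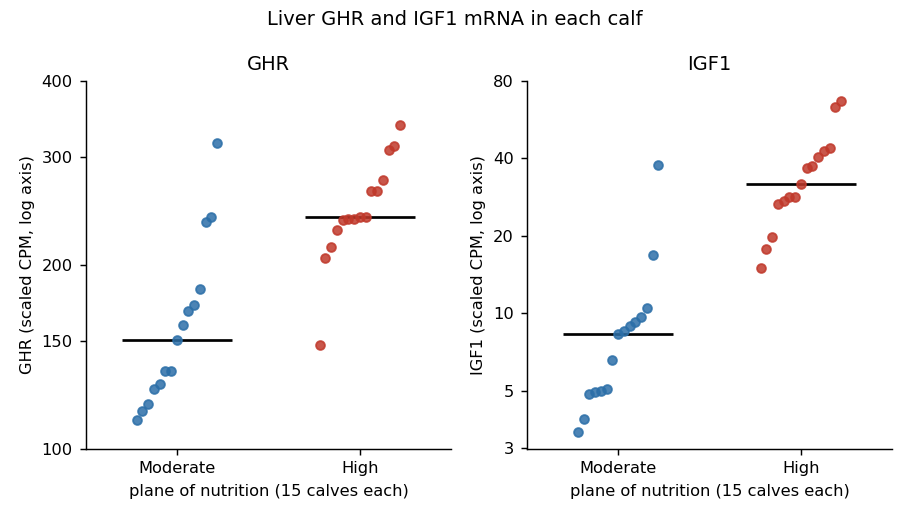
GHR (left) and IGF1 (right) in scaled CPM on log axes, 1 point per calf ordered by level within a diet, with a bar at the diet's median. GHR medians are 151 (Moderate) and 240 (High), IGF1 medians 8.32 and 31.9, and Moderate replicate 7 is the topmost Moderate point in both panels.

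Of all 12913 tested genes, 816 (6.32%) rose and 735 (5.69%) fell in High, and GHR and IGF1 were both among those that rose. IGF1 was near the top of the list: only 10 tested genes had a larger positive log2 fold change, and it was 62nd by p. GHR, at 401st by p and 269th by positive log2 fold change, was a smaller change in a more abundant transcript (608th by mean level, against 5024th for IGF1, without correction for gene length). Among the 506 tested genes within 1.5-fold of the mean level of GHR, 29.1% were called, and among the 2884 genes within 1.5-fold of that of IGF1, 11.4%. Groups that did not overlap in any library were found in 26 genes (0.201%), and neither GHR nor IGF1 was among them. The median log2 fold change of all tested genes was -0.01.

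**Figure D2:**
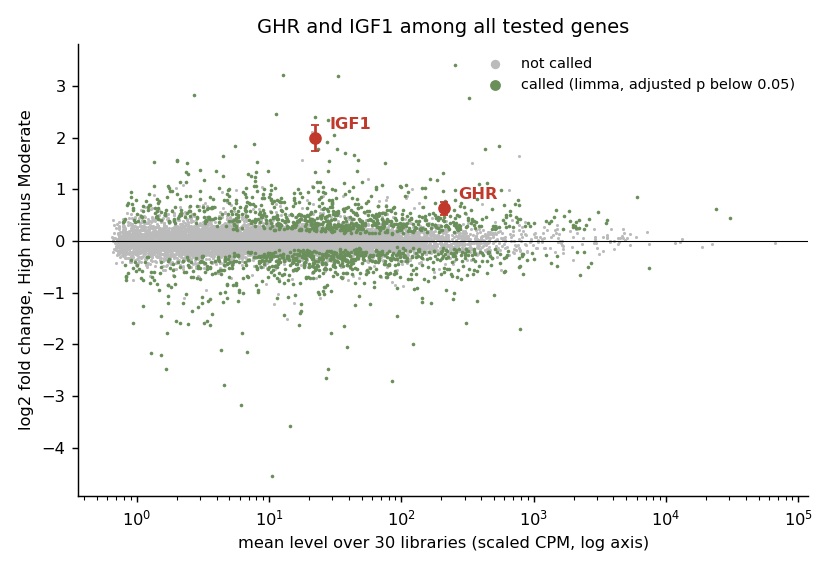
Log2 fold change (High minus Moderate) against mean level in scaled CPM (log axis) for 12913 tested genes, with called genes in green and GHR and IGF1 in red with their standard errors. IGF1 (1.99) lies near the upper edge of the cloud, and GHR (0.63) lies lower and at a higher level.

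IGF1 rose more than GHR within the same livers. The ratio of IGF1 to GHR was compared only between libraries, since the genes differ in length and the ratio itself is no ratio of molecules. In High livers IGF1 values were 13.7% ± 4.02 of GHR values, and in Moderate livers 5.25% ± 2.37 (SD, n = 15 each). High livers ran from 7.32% (replicate 1) to 20.3% (replicate 15) and Moderate livers from 2.89% (replicate 14) to 11.9% (replicate 7). Only Moderate replicates 7 and 5 (8.39%) lay within the High range. The log2 ratio was 1.43 higher in High (SE 0.18), a 2.70-fold difference (permutation test, two-sided, p = 1e-05, which no set of 100000 resamples can go below; after adjustment over 4 tests, 4e-05). All 15 High libraries were above the Moderate median of this ratio, and 10 were above the highest Moderate library. The difference in log2 ratio was 1.53 without Moderate replicate 7.

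Within each diet, calves with more receptor mRNA had more IGF1 mRNA. Among High livers the 2 highest for GHR, replicates 6 (339 scaled CPM) and 15 (313), were also the 2 highest for IGF1 (67.2 and 63.4). The lowest High liver for IGF1, replicate 1 (15.0), was second lowest for GHR (205). Pearson's r of the log2 values was 0.746 (95% interval 0.377 to 0.910 by Fisher's transformation, n = 15) with permutation p = 0.00139, and Spearman's rho was 0.675 (permutation p = 0.00725). Without High replicates 3 and 6, the 2 farthest from the median of GHR, r was 0.693 (adjusted permutation p = 0.0165) and rho 0.522 (adjusted permutation p = 0.0704), so the rank correlation no longer passed. A calf could depart from this relation: High replicate 12 had 228 scaled CPM of GHR and 17.8 of IGF1, while replicate 5, at 237 of GHR, had 43.8 of IGF1.

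The same held among Moderate livers. Replicates 7 and 1 were first and second for both genes. The 7 livers with less GHR than any High liver had IGF1 between 3.45 and 5.07, apart from replicate 5, which paired a GHR of 125 with an IGF1 of 10.5. Replicate 10 departed the other way, with a GHR of 235 and an IGF1 of 8.90. Split at the medians, 13 of the 15 Moderate livers fell on the same side for both genes (6 above and 7 not above), against 9 of 15 High livers (4 and 5). The High count is not far from what unrelated genes would give, and the split was not tested. Pearson's r was 0.862 (95% interval 0.626 to 0.953, n = 15) with permutation p = 6e-05, and rho was 0.732 (permutation p = 0.00267). After adjustment over the 2 diets these permutation p-values were 0.00012 for r and 0.00534 for rho, and in High 0.00139 and 0.00725. The value of r rested in part on Moderate replicates 7 and 1: without both, r was 0.647 (permutation p = 0.0165, also when adjusted) and rho 0.588 (permutation p = 0.0388, adjusted 0.0704). Without replicate 7 alone r was 0.759, and without replicate 5 it was 0.920. The correlation in High was 0.116 below that in Moderate, a difference that did not pass (permutation test, two-sided, p = 0.422, adjusted 0.432); with 15 calves a diet the intervals are wide, and this does not show that the relations are alike.

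**Figure D3:**
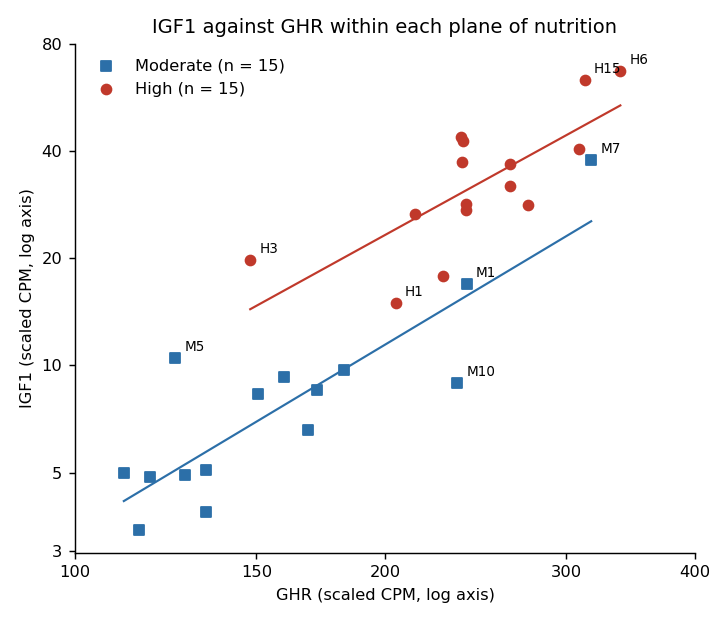
IGF1 against GHR, both in scaled CPM on log axes, for 15 High (red circles, H) and 15 Moderate (blue squares, M) calves, with the least-squares line of the log2 values in each diet. Replicate numbers stand beside some of the libraries named in the text, and High replicates 12 and 5 carry none. Both lines rise (slopes 1.57 and 1.65), and the High line lies above the Moderate line over the range of GHR that the diets share.

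The slopes of log2 IGF1 on log2 GHR were 1.57 (SE 0.39) in High and 1.65 (SE 0.27) in Moderate. Without Moderate replicate 7 the Moderate slope was 1.28 (SE 0.32), and without replicates 7 and 1 it was 1.05 (SE 0.37). High livers nevertheless had more IGF1 than Moderate livers of like GHR. For 7 Moderate libraries there was at least 1 High library whose GHR differed by no more than 10% of the larger value. In 22 of the resulting 22 pairs, which share libraries, IGF1 was higher in the High liver. That count says little by itself, since IGF1 was higher in the High liver in 95.1% of all pairs, whatever their GHR. Only Moderate replicates 7 and 1 had more IGF1 than the lowest High liver (15.0). Pairs of the other Moderate livers could not have gone the other way. Moderate replicate 1 (GHR 240, IGF1 16.9 scaled CPM) had 8 High libraries within 10% of its GHR, with IGF1 from 17.8 to 43.8. Moderate replicate 10 (GHR 235, IGF1 8.90) had 7, with the same range. Even Moderate replicate 7 (IGF1 37.8) was below its 3 High counterparts, at 40.7 to 67.2. High replicate 3 (GHR 148), which matched 4 Moderate livers, had an IGF1 of 19.8, against 3.88 to 9.27 in those.

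With the log2 GHR value of each library as a covariate, a fit chosen after the data were seen, the High minus Moderate difference of IGF1 was 0.96 (SE 0.19; limma, adjusted p = 0.00224). The common slope within diets was 1.62, and 1.62 times the GHR difference of 0.63 gives 1.02 of the 1.99 by which IGF1 differed. Without Moderate replicate 7 the covariate fit gave 1.16 (SE 0.22; limma, adjusted p = 0.00248) and the common slope was 1.40. Without replicates 7 and 1 these were 1.26 (SE 0.24; limma, adjusted p = 0.00502) and 1.31. Replicates 7 and 1 were the highest Moderate livers for both genes, so the larger differences without them are no added support. In the reverse fit, with IGF1 as the covariate, the GHR difference turned to -0.20 (SE 0.13) and did not pass (limma, adjusted p = 0.499); without Moderate replicate 7 it was -0.16 (limma, adjusted p = 0.715), and without replicates 7 and 1 -0.08 (limma, adjusted p = 0.857). Such a fit describes how the differences of both genes overlap across calves, and since both genes differed with diet it gives no order between them.

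Calves of the same diet varied more in these genes than in most genes of like level. The SD within diets was 0.37 on the log2 scale for GHR, against a median of 0.22 for the 506 genes within 1.5-fold of its level, 75 of which (14.8%) varied more. For IGF1 it was 0.73, against a median of 0.22 for 2884 genes, and 49 of them (1.70%) varied more. Counting of reads accounted for little of this, at 0.494% to 0.779% of the within-diet variance for GHR and 1.45% to 3.06% for IGF1. From lowest to highest calf, IGF1 spanned 4.48-fold in High and 11.0-fold in Moderate, and GHR 2.29-fold and 2.84-fold. The coefficient of variation was larger in Moderate for both genes, at 34.8% against 18.9% for GHR and 89.0% against 42.8% for IGF1. The Moderate coefficients were 26.6% and 47.2% without Moderate replicate 7. Without replicates 7 and 1 they were 23.3% and 35.6%, so that for IGF1 the order turned, with the Moderate coefficient below the High one. Replicates 7 and 1 were the highest Moderate livers for both genes, and no High liver was left out. The turned order follows from that choice and does not show that High calves varied more. The difference in mean absolute deviation from the diet's median (log2 scale) did not pass for GHR (-0.14 in High minus Moderate; permutation test, p = 0.116, adjusted 0.233) or IGF1 (-0.14; permutation test, p = 0.432, adjusted 0.432). Without High replicate 3 the unadjusted permutation p for GHR was 0.0369, and the adjusted value of 0.0739 did not pass either.

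After diet means were removed, IGF1 was the closest partner of GHR among 12912 other tested genes over the 30 libraries, and GHR the closest partner of IGF1 (Pearson r = 0.824 for both, a description across libraries that share preparation and scaling). The median r of the other genes was about 0, at -0.0009 with GHR and -0.0071 with IGF1, and the highest 1% of genes began at 0.543 and 0.538. With each library left out in turn, IGF1 remained first for GHR in 30 of 30 cases and GHR first for IGF1 in 29 of 30, the exception being the case without Moderate replicate 7, where it was second (r = 0.748). Without Moderate replicates 7 and 1 together, IGF1 was second for GHR and GHR 32nd for IGF1 (r = 0.697). Within High alone the ranks were 10 and 85, and within Moderate alone 6 and 2.

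**Figure D4:**
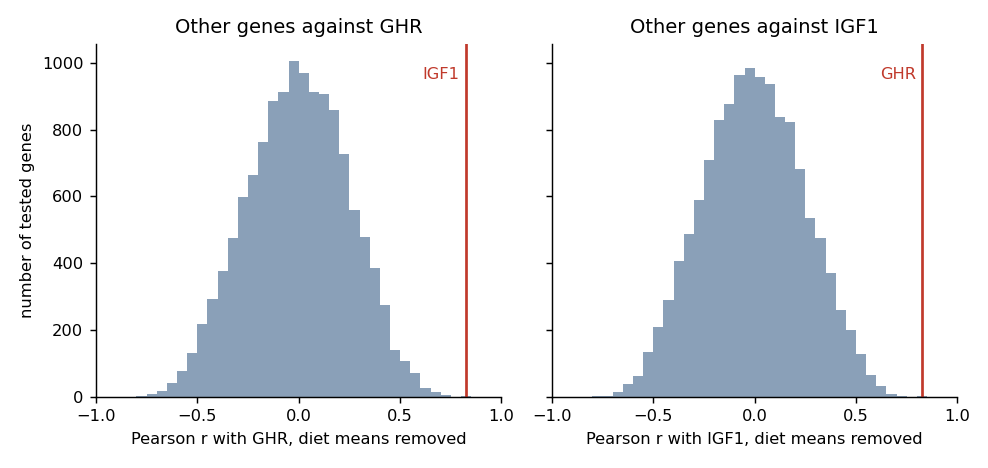
Histograms of Pearson r over 30 libraries, diet means removed, between GHR (left) or IGF1 (right) and each other tested gene, with a red line at the r between GHR and IGF1. The line, at 0.824, lies to the right of all other genes in both panels.

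The next closest gene to GHR was ENSBTAG00000033299 (r = 0.748 with GHR and 0.682 with IGF1), which the files do not pair with a name. It ran from 86.8 to 149 scaled CPM in High and from 21.4 to 92.7 in Moderate, where replicate 7 was again the highest library. It rose in High by 1.51 on the log2 scale (SE 0.17; limma, adjusted p = 1.35e-07). Its r with GHR was 0.553 within High and 0.821 within Moderate. Without Moderate replicate 7 its r was 0.657 with GHR and 0.551 with IGF1, and without replicates 7 and 1 it was 0.572 and 0.441. Its place was not kept, since without Moderate replicate 7 another gene had r = 0.689 with GHR. The next closest gene to IGF1 was ENSBTAG00000020378 (r = 0.730), also unnamed in the files. Its High mean was 26.3 ± 3.25 scaled CPM and its Moderate mean 25.1 ± 3.35 (SD, 15 calves each), and its log2 difference of 0.07 (SE 0.07) did not pass (limma, adjusted p = 0.611). Its r with IGF1 was 0.677 without Moderate replicate 7, where another gene had 0.695, and 0.697 without replicates 7 and 1.

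Library depth and position along the main axis of variation were set beside the members within each diet. Over 12 relations, none passed after adjustment, for r or for rho, and 1 had an unadjusted permutation p below 0.05. For total reads and number of genes detected, r ran from -0.222 to 0.209. The 1 relation was that of GHR with the first principal component among Moderate livers, computed without GHR and IGF1. Its r was 0.683 (permutation p = 0.00463, adjusted 0.0556) and its rho 0.650 (permutation p = 0.0107, adjusted 0.129). Without Moderate replicates 10 and 13, the 2 farthest from the Moderate median of this component, r was 0.671. Moderate replicate 7 was kept in all of these values. On that component High livers score higher, so Moderate livers nearer to the High group had more GHR in this sample. For IGF1 in Moderate r was 0.440 (permutation p = 0.099, adjusted 0.473). In High, r was 0.418 for GHR and 0.161 for IGF1, with adjusted permutation p-values of 0.473 and 0.989. No batch is named in the labels, so these relations could not be recomputed by batch.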

How the data were processed

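PolyA RNA of 30 liver samples was sequenced after a stranded TruSeq preparation, per the labels' protocols. Per the submitters' processing notes, reads were handled with cutadapt 2.6, STAR 2.6.1, FastQC 0.11.8, edgeR 3.5 and R 3.4 on build UMD3.1. How genes were counted, with which strand setting and annotation, is not given in the sources used here. Values as deposited are a scaled signal (scaled CPM): the reads of a gene divided by the library's trimmed-mean (TMM) scaled total. In every library all values above 0 (100%) were whole multiples of 1 step within 0.001, so the whole reads were recovered. There were 0 columns from outside the series, and all rows carried a gene identifier. RefSeq's ARS-UCD2.0 table paired 0 identifiers with symbols, so the planned lists of pathway and marker genes could not be applied.

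Genes kept by edgeR's filterByExpr (minimum count 10) were tested for High minus Moderate with limma 3.58.1 on log2(scaled CPM + 0.5), with a trend of variance on mean, no covariate and Benjamini-Hochberg adjustment over all tested genes (threshold 0.05). Fold changes on this scale understate those of low genes. Single values were compared by two-sided permutation tests with 100000 resamples (numpy 2.4.6). The script was tested on simulated counts. Alternatives used edgeR 4.0.16, DESeq2 1.42.0, voom and sva 3.50.0. Named genes are GHR, IGF1 and the 2 genes most correlated with each after centring within diet. The members, lists and tests were chosen with earlier results of these data known. Replicates were numbered in accession order.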

Additional observations from a re-analysis of the deposited data

How the results depend on the processing

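GHR and IGF1 were higher in High, and called, with each library left out and under each of 12 alternatives, but GHR was not with IGF1 as a covariate. Over the 12 alternatives (RLE, upper-quartile and plain CPM scaling, 2 other filters, pseudocounts of 0.1 and 1, edgeR's quasi-likelihood test, DESeq2, voom, 1 surrogate variable, and without the 3 least typical Moderate libraries) the log2 fold change was 0.58 to 0.66 for GHR (highest adjusted p 0.00254) and 1.87 to 2.15 for IGF1 (highest adjusted p 1.58e-05). With each library left out it was 0.59 to 0.70 and 1.91 to 2.14. Genes called ranged from 1440 to 1789, and from 1395 to 1647 with a library left out. Under plain CPM the median log2 fold change over all genes was -0.05, with 630 higher and 1097 lower genes, against 816 and 735. With IGF1 as covariate, added after the data were seen, the GHR difference changed sign (-0.20). The difference in log2 ratio was 1.29 to 1.51, and 1.38 to 1.53 with a library left out. With a library left out, r was 0.677 to 0.773 in High and 0.759 to 0.920 in Moderate, and the difference of r was -0.18 to -0.01. The difference in spread was then -0.18 to -0.092 for GHR, reaching a permutation p of 0.0369 (0.0739 adjusted) without High replicate 3, and -0.18 to -0.03 for IGF1. With plain CPM, near-zero correlations in High changed sign, that of GHR with total reads to 0.0439 and that of IGF1 with genes detected to 0.0169. No paired analysis was possible because replicate numbers follow accession order and pair no calves. Depth limits IGF1 most in Moderate, where 57 reads were the fewest.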
